A study of Mus musculus with 9 samples.

Results

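The 9 genes Tm4sf1, Jam2, Ramp2, Clec1a, Cavin2, Ehd3, Sbspon, Gda and Trim47 were followed through blood stem and progenitor cells of young and old mice, out of 31053 genes counted. They were chosen by their measured levels in these data, as markers of stem-cell clusters that differed between the groups, with higher levels in old cells. The difference between old and young cells therefore chose the genes and is given below as a description without a test.

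LSK cells (Lin-, cKit+, Sca1+ bone marrow cells, the fraction that holds the blood stem cells and the multipotent progenitors) of C57BL/6 mice were profiled by single-cell RNA sequencing, with 1 library per sample and 3 samples per group. Young mice were 10 to 12 weeks old and aged mice over 80 weeks old, and both received the cyclodextrin vehicle. CASIN mice were aged mice of over 80 weeks given CASIN, an inhibitor of the small GTPase Cdc42, at 25 mg/kg by 1 intraperitoneal injection every 24 h for 4 days, with harvest on day 5. The labels do not say whether a sample was 1 mouse or a pool, so that p-values measure the spread between these samples.

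The libraries held 19237354 to 42780953 UMIs (unique molecular identifiers, counted once per RNA molecule captured), and 1112 to 2417 cells per sample passed the filters, 15856 in all. Sequencing was split into 2 batches by the labels, with aged replicate 1 and replicates 1 and 2 of both young and CASIN in batch 1, and the other 4 samples in batch 2. RNA of Xist, which is transcribed from the inactive X chromosome, stood at 2357 to 2794 CPM (UMIs of a gene scaled to a library total of 1e6 UMIs) in the 4 libraries of batch 2 and at no more than 0.163 CPM in the 5 libraries of batch 1, while the Y-linked Ddx3y and Eif2s3y had UMIs in every library of batch 1 and none in batch 2. Batch and sex-linked RNA thus cannot be told apart. The barcodes of batch 2 also had higher mitochondrial shares, with medians of 13.0 to 15.5% per library against 2.73 to 4.61% in batch 1. Among the kept cells 54 barcode sequences stood in more than 1 library (125 cells), and leaving these cells out left the median member difference between aged and young at 3.27 against 3.28 on the log2 scale.

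Stem cells were taken as cells with at least 1 UMI of Procr, which encodes the endothelial protein C receptor EPCR, a surface marker of blood stem cells. This gave 7650 Procr-positive cells, 527 to 1400 per sample, of which all but 1885 had a UMI of Ptprc, the pan-leukocyte gene. Procr itself stood at 113 to 174 CPM in these cells in young, 181 to 250.4 in aged and 160 to 239 in CASIN samples. Blood stem cells and endothelium share a developmental origin, since the first stem cells bud from embryonic endothelium, and both use a number of the same surface proteins. Several of the 9 genes are known from vessel walls, where membrane and caveolar proteins form junctions, take up cargo and receive signals. Old blood stem cells are known for their greater number and for a shift towards platelet and myeloid output.

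Among the membrane proteins, Tm4sf1 encodes a small protein with 4 membrane passes that is abundant in endothelium, and it lies on the minus strand of GRCm38 at chr3:57285611-57301988. Jam2 (chr16:84774123-84825928) encodes junctional adhesion molecule B, a partner of Jam3 in cell contacts. Ramp2 (chr11:101246028-101259546) encodes the accessory protein that turns the receptor Calcrl into the adrenomedullin receptor. Clec1a (chr6:129424772-129452000) encodes a C-type lectin-like receptor. Inside the cell, Cavin2 (chr1:51289126-51302960) belongs to the coat of caveolae, and Ehd3 (chr17:73804134-73832094) encodes an ATPase of endosome recycling. Sbspon (chr1:15853862-15892722) encodes a secreted matrix protein, Gda (chr19:21391307-21473445) the guanine deaminase that makes xanthine, and Trim47 (chr11:116105752-116127210) a ubiquitin ligase. Cavin2 and Sbspon share chromosome 1, and Ramp2 and Trim47 chromosome 11.

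The 250 bases before the RefSeq start site (GRCm38.p6) are shown for Tm4sf1 and Cavin2, which had the most ETS core motifs among the 5 members with an entry, since ETS factors are known regulators of both endothelial and blood stem cell genes. Capitals mark the ETS core, read as GGAA on either strand (TTCC on the strand shown), and no other motif was capitalised.
Tm4sf1, chr3:57301989-57302238, minus strand: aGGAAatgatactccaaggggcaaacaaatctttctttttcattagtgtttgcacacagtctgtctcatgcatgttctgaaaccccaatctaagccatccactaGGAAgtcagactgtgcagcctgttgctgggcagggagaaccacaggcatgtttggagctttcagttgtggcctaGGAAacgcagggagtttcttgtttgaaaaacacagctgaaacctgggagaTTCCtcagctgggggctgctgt
Cavin2, chr1:51288876-51289125, plus strand: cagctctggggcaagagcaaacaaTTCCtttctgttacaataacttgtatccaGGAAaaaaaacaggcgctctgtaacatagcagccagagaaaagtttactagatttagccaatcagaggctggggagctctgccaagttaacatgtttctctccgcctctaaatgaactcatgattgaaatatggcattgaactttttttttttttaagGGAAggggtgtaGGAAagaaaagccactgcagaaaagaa
Both windows held 4 ETS cores, a number that 33.4% of 27025 RefSeq promoters reached or passed. The windows of Ehd3, Gda and Trim47 held 3, 1 and 0 of them, against a median of 3 over all promoters. The GATA motif AGATAA and the AP-1 motif TGANTCA were in none of the 5 windows and in 10.3% and 6.87% of all promoters. A match is a description of the letters and says nothing of binding.

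In Procr-positive cells the 9 genes were together low in young and high in aged and CASIN samples. Summed over the 9 genes, the level was 59.5, 70.7 and 74.1 CPM in young replicates 1 to 3, 750.0, 365 and 246 CPM in aged replicates 1 to 3, and 595, 699 and 658 CPM in CASIN replicates 1 to 3. Every old sample was above every young one, and the aged samples were the most spread. In such sums, more cells with a gene's RNA and more RNA per cell cannot be told apart. Shares of cells with a UMI and UMIs per such cell are given further below, but counts this low do not separate them.

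**Figure D1:**
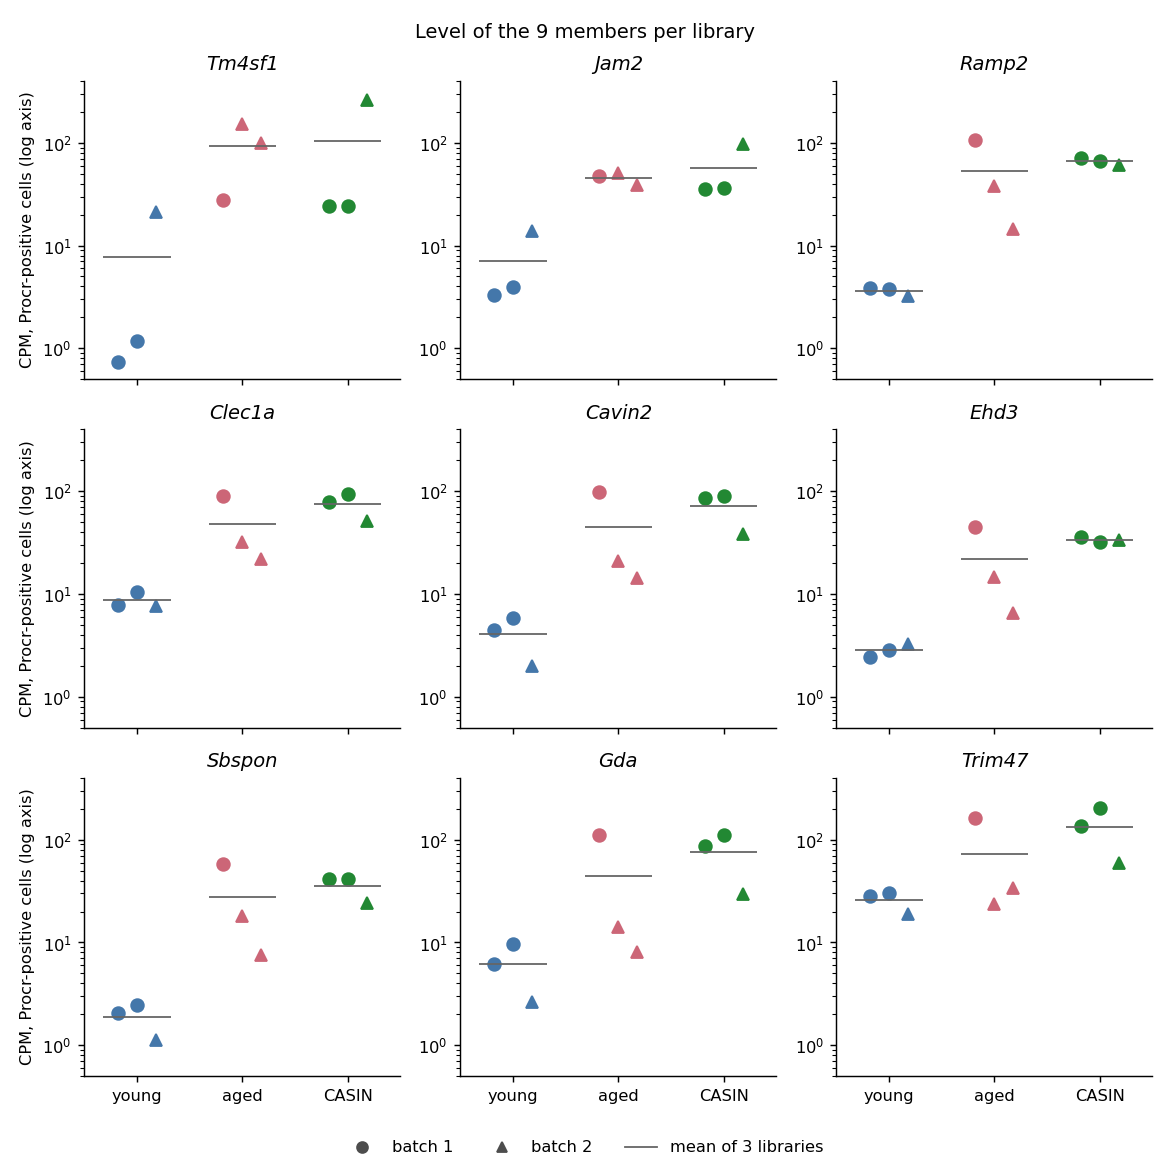
Level of each of the 9 genes in Procr-positive cells in CPM on a log axis, with 1 point per library, circles for batch 1, triangles for batch 2 and a line at the mean of the 3 libraries of a group. Tm4sf1 and Jam2 were highest in batch 2 triangles, with 262 and 98.4 CPM in CASIN replicate 3, whereas Gda and Trim47 were highest in batch 1 circles.

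Tm4sf1 had 0.737, 1.18 and 21.4 CPM in the 3 young samples, 27.8, 153 and 99.6 CPM in the aged and 24.4, 24.4 and 262 CPM in the CASIN samples. Young replicate 3, of batch 2, stood close to the old samples of batch 1 and far below those of its own batch. The fitted log2 fold change from young to aged was 3.32 (SE 0.39), with 3.88 in batch 1 and 2.50 in batch 2.

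Jam2 had 3.32, 3.93 and 13.8 CPM in the young, 47.4, 51.0 and 39.2 CPM in the aged and 35.4, 36.0 and 98.4 CPM in the CASIN samples. The aged samples of both batches lay close together, unlike those of the other members, and did not overlap the young ones. The log2 fold change was 2.68 (SE 0.37).

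Ramp2 had 3.83, 3.74 and 3.24 CPM in the young, 108, 37.6 and 14.7 CPM in the aged and 70.8, 66.3 and 61.1 CPM in the CASIN samples. The young and the CASIN samples were each tight and the aged samples were widely spread, with the lowest aged sample still above the highest young one. The log2 fold change was 4.09 (SE 0.50).

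Clec1a had 7.88, 10.5 and 7.73 CPM in the young, 91.0, 31.97 and 21.8 CPM in the aged and 78.1, 94.5 and 51.0 CPM in the CASIN samples. No old sample reached down to the young range. The log2 fold change was 2.71 (SE 0.30).

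Cavin2, of the caveolar coat, had 4.42, 5.80 and 2.00 CPM in the young, 98.7, 21.0 and 14.3 CPM in the aged and 85.7, 90.3 and 38.8 CPM in the CASIN samples. Ehd3 had 2.43, 2.85 and 3.24 CPM in the young, 45.2, 14.6 and 6.52 CPM in the aged and 36.1, 32.3 and 33.3 CPM in the CASIN samples. Both were highest in aged replicate 1 and did not overlap between young and aged. Their log2 fold changes were 3.85 (SE 0.32) and 3.15 (SE 0.52).

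Sbspon, the secreted protein, had 2.06, 2.46 and 1.12 CPM in the young, 57.5, 18.2 and 7.56 CPM in the aged and 41.3, 41.6 and 24.4 CPM in the CASIN samples. Gda, the purine enzyme, had 6.12, 9.63 and 2.62 CPM in the young, 112, 14.1 and 8.13 CPM in the aged and 87.4, 111 and 29.4 CPM in the CASIN samples. Aged replicate 3 fell below young replicate 2 for Gda, which was sequenced in the other batch, while within each batch the aged samples were higher. The log2 fold changes were 4.23 (SE 0.44) for Sbspon and 3.28 (SE 0.40) for Gda.

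Trim47 had 28.7, 30.6 and 18.8 CPM in the young, 163, 23.9 and 33.8 CPM in the aged and 135, 203 and 59.7 CPM in the CASIN samples. It overlapped between young and aged across batches, with aged replicate 2 below the young samples of batch 1. Its log2 fold change of 1.69 (SE 0.33) was the smallest of the 9, and in batch 2 alone it was 0.59 against 2.42 in batch 1.

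For 7 of the 9 genes every aged sample was above every young one, Gda and Trim47 being the exceptions, as was the case for 6.09% of the 12707 genes tested. A share of 9.41% of the 12707 genes tested had an adjusted p below 0.05 between aged and young in edgeR's quasi-likelihood test with Benjamini-Hochberg adjustment, 6.89% as higher and 2.53% as lower. The median log2 fold change of the members was 3.28 against 0.01 over all genes tested. Within batch 1 the member median was 3.67 (range 2.42 to 4.50) and within batch 2 it was 1.74 (range 0.59 to 2.71), every aged sample being above every young sample of its batch for all 9, and for 19.6% of the genes tested. Leaving out aged replicate 1, the only aged library of batch 1, lowered the median to 2.23.

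Every CASIN sample was above every young one for all 9 genes, against 8.15% of the genes tested, with log2 fold changes of 2.25 (Trim47) to 4.38 (Sbspon) and a median of 3.78. The medians were 3.49 in batch 1 and 3.07 in batch 2, closer together than those of aged against young. In this comparison, which shares the young samples with the one that chose the genes, 16.5% of all genes tested passed the threshold, 10.1% as higher and 6.36% as lower (32.1% at an unadjusted p below 0.05).

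The share of Procr-positive cells was then separated from the level within them. Because a deeper cell shows a Procr UMI more readily, each cell was thinned to 4000 UMIs, and 6 to 68 shallower cells per sample were left out. Procr-positive cells made up 18.4, 17.2 and 23.6% of the young, 34.2, 33.6 and 33.0% of the aged and 27.4, 22.3 and 36.8% of the CASIN samples. The aged share of 33.6% ± 0.595 (SD, n = 3) was above the young share of 19.7% ± 3.42 (SD, n = 3) without overlap, by 13.9 percentage points (exact permutation p = 0.1, two-sided, adjusted p = 0.3 over 3 comparisons). With 3 samples against 3, 0.1 is the smallest p this test can give. The CASIN share of 28.8% ± 7.35 (SD, n = 3) overlapped the aged one, with a difference of -4.76 points (exact permutation p = 0.4). Against young it was higher by 9.09 points (exact permutation p = 0.2, adjusted p = 0.3). Without thinning the mean shares were 40.3, 54.8 and 51.0%.

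**Figure D2:**
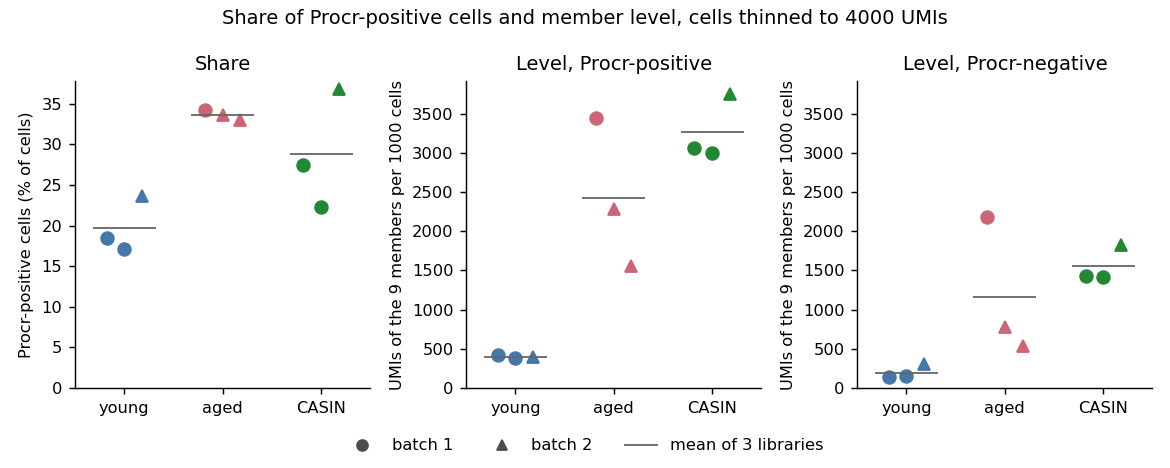
Share of Procr-positive cells in percent (left) and UMIs of the 9 genes per 1000 Procr-positive cells (middle) and Procr-negative cells (right), in cells thinned to 4000 UMIs, with 1 point per library and a line at the group mean. The mean share was 19.7% in young and 33.6% in aged samples, and the mean level in Procr-positive cells was 403 and 2424 UMIs.

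Next, the levels within the cells were set beside these shares. Per 1000 thinned Procr-positive cells the 9 genes had 403 UMIs in young and 2424 in aged samples, and per 1000 Procr-negative cells 197 and 1163 UMIs. When the difference in mean UMIs per LSK cell was split, the change in the share of Procr-positive cells carried a median of 7.27% of it over the members (range 4.63% for Sbspon to 9.68% for Jam2). The level within Procr-positive cells carried a median of 35.8% (30.7% for Trim47 to 49.9% for Tm4sf1), and the level within Procr-negative cells 58.0%. The last of these is a mean over several classes of cells, so that a change in their mix enters it (classes below). A thinned cell more often lacks a Procr UMI and is then counted as Procr-negative. In unthinned cells the summed members split into 8.49% from the share, 65.3% from the level in Procr-positive cells and 26.2% from the level in Procr-negative cells. The share part thus remained the smallest in both, while the order of the other parts changed with thinning. Within the batches the median of the share part was 4.67% in batch 1 and 7.96% in batch 2.

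Old samples held more cells in which a member was seen. At least 1 of the 9 genes was detected in 24.7% ± 2.71 of thinned Procr-positive cells in young, 61.3% ± 21.8 in aged and 73.3% ± 1.08 in CASIN samples (SD, n = 3). At least 3 of them were detected in 2.06, 27.1 and 40.1% of these cells. Aged replicate 1 had 86.1% of cells with a member, against 52.7 and 45.1% in aged replicates 2 and 3.

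Tm4sf1 was detected in 1.98% of young and 22.5% of aged Procr-positive cells, with means of 1.47 and 2.30 UMIs per cell in which it was seen. Jam2 went from 3.26 to 18.4% with 1.14 and 1.42 UMIs per such cell, and Trim47 from 12.2 to 23.5% with 1.19 and 1.29 UMIs. The Trim47 share was 15.3, 12.6 and 8.63% in the young and 48.8, 8.18 and 13.6% in the aged samples, so that aged replicate 1 alone stood above the young ones and aged replicate 2 was below all of them. Gda overlapped as well. For Tm4sf1 and Jam2 the mean share of cells with a UMI differed more between the groups than the number of UMIs in such cells, which cannot be below 1. Per 1000 Procr-positive cells Tm4sf1 had 36.6 UMIs in young and 597 in aged samples, and Jam2 39.5 and 262. At levels under 1 UMI per cell, more RNA in every cell would also raise mainly the share with a UMI. More cells with the RNA and more RNA per cell thus cannot be told apart here either. Procr-negative cells with 5 or more UMIs of Elane or Mpo, granule genes of granulocyte and monocyte progenitors, were read as a background at the same 4000 UMIs per cell. For 8 of the members 0 of 45 such cells had a UMI in young samples, which allows a share of up to 6.67% by counting error alone, and only Trim47, with 12.2%, was above that limit in young Procr-positive cells. In aged samples these 8 were seen in 0 to 3 of 74 such cells. Only 2 of the 74 came from aged replicate 1, too few to give a background for that library. Gda was seen in 3 of 45 of them in young (6.67%) and in 8 of 74 in aged samples (10.8%), so that they give no background for Gda. Its share was 4.53% in young Procr-positive cells and 38.5, 8.18 and 5.43% in those of aged replicates 1 to 3. In Flt3 cells of the same libraries, unthinned, Gda had 0 to 0.361 CPM in young and 0.289 to 5.77 CPM in aged samples, below its level in the Procr-positive cells of each library.

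Member levels were higher in cells with more Procr UMIs. Cells with 0, 1 and 2 or 3 Procr UMIs had 197, 365 and 578 member UMIs per 1000 cells in young, 1163, 2177 and 2732 in aged and 1559, 3010 and 3683 in CASIN samples. In each of the 9 libraries the order was the same over these 3 bins. At 4 or more Procr UMIs the aged mean was 2825 and the CASIN mean 4733, and young libraries held only 18 such cells. On average, aged cells with no Procr UMI had more member UMIs than young cells with 2 or 3, except that aged replicate 3 (538) was below young replicates 1 and 2 (608 and 613).

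**Figure D3:**
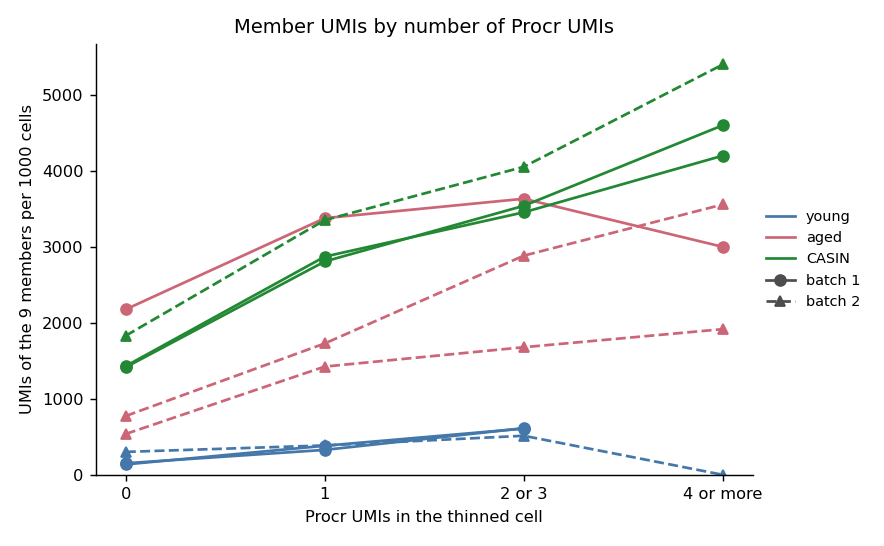
UMIs of the 9 genes per 1000 cells against the number of Procr UMIs in cells thinned to 4000 UMIs, with 1 line per library, solid for batch 1 and dashed for batch 2, and bins of under 5 cells left out. All 3 young lines stay at or below 613 UMIs, with 0 in the 15 cells of young replicate 3 at 4 or more, and the old lines begin at 538 or above.

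The members were also found in the same cells more often than their single shares would give. Over the 36 pairs, 2750 pairings in one cell were counted in aged Procr-positive cells against 1862 from the product of the shares within each sample, and 3969 against 2761 in CASIN cells. All 36 ratios were above 1 in both groups, from 1.13 (Cavin2 with Trim47) to 2.17 (Tm4sf1 with Ramp2) in aged cells. In young cells, with 134 pairings against 46.1, single pairs were too few to order. These ratios share their libraries and cells and are a description.

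The remaining cells were sorted into classes by single genes. In aged samples the summed level was 454 CPM ± 264 in Procr-positive cells, 361 ± 279 in Procr-negative cells without the other gate genes, and 224 ± 148 in cells with Pf4 or Itga2b, genes of platelets and their progenitors (SD, n = 3). Cells with Flt3, of lymphoid-primed progenitors, had 32.4 CPM ± 10.5, and cells with Elane or Mpo 28.1 ± 7.999. The ranges of the first 3 of these classes overlapped across the aged samples, while their order was the same within each aged sample. In aged replicates 1 to 3, Procr-positive cells had 750, 365 and 246 CPM. Procr-negative cells without the other gate genes had 682, 228 and 173 CPM, and cells with Pf4 or Itga2b 390, 174 and 107 CPM. Both low classes were below all of them in every aged sample. Young samples had 68.1, 74.0, 54.2, 14.4 and 13.4 CPM in the same classes. The Flt3 class and the Elane or Mpo class were also the lowest in each young sample. In young replicates 1 and 2 the Flt3 class held 641 of 1250 and 746 of 1429 unthinned Procr-negative cells. Aged replicate 1 had 166 of 654. Young replicate 3, of batch 2, had 204 of 674. Aged replicates 2 and 3 had 252 of 770 and 256 of 833. The part of this mix in the member difference over Procr-negative cells was not tested.

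In cells chosen in other ways from the same libraries, the difference between aged and young, which chose the genes, held its direction. All 9 genes were higher in aged Procr-negative cells (median log2 fold change 3.12), where 0.47% of 12553 genes tested passed the threshold. The mix of classes in these cells also differed between aged and young in batch 1 (above). All 9 were also higher in Procr-positive cells without Vwf, the von Willebrand factor gene that marks platelet-biased stem cells (median 3.14). In Procr-positive cells with Vwf the median was 1.56, from 23 to 31 young and 112 to 367 aged cells per sample.

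The mitochondrial share of a cell moved with the members in every library. Procr-positive cells with more than 5 and up to 10% mitochondrial UMIs had a higher summed level than those with up to 5% in all 9 libraries, by 1.48 to 8.07 times. The cells above 5% were also shallower in all 9 libraries. Their median was 9715 against 16397 UMIs in aged replicate 2 and 8006.5 against 9315 in CASIN replicate 2. Shallower cells show a Procr UMI less readily, and these cells were not thinned. In batch 1 the level was 57.7 and 69.1 CPM in young and 724 CPM in aged cells with up to 5%, and 131 and 201 against 1070 CPM above 5%. In batch 2 it was 46.1 CPM in young replicate 3 against 64.0 and 97.5 CPM in aged replicates 2 and 3 with up to 5%, and 130 against 516 and 389 CPM above 5%. Young replicate 2 had only 14 cells above 5%. The mean aged level was 1.75 times the young one in batch 2 cells with up to 5% and 3.49 times above 5%, against 11.4 and 6.46 times in batch 1.

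**Figure D4:**
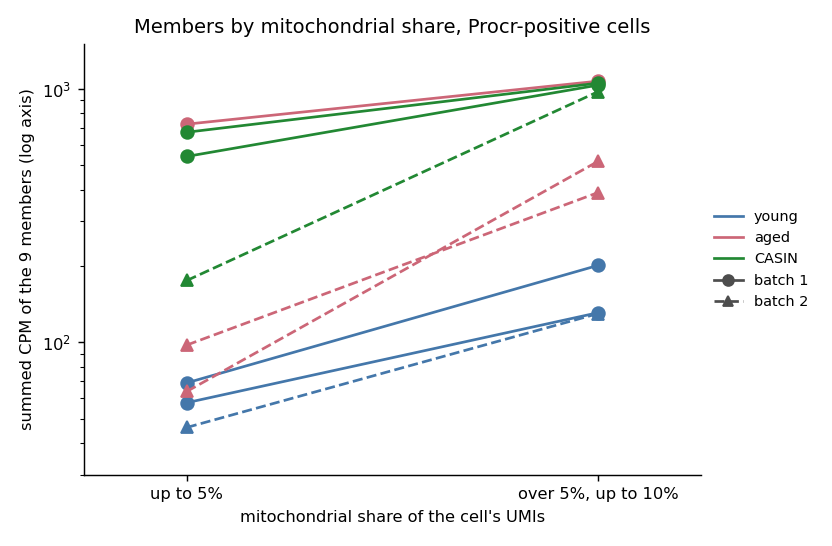
Summed CPM of the 9 genes (log axis) in Procr-positive cells with up to 5% and with over 5 and up to 10% mitochondrial UMIs, with 1 line per library, solid for batch 1 and dashed for batch 2. Every line rises, most steeply in the old samples of batch 2, from 64.0 to 516 CPM in aged replicate 2.

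Tm4sf1 was 6.21 to 9.19 times higher above 5% in the old libraries of batch 2 and 1.24 to 2.04 times in those of batch 1. Jam2 in aged replicate 2 went from 7.80 CPM with up to 5% to 72.7 CPM above 5%, and the lower value was not above the 8.44 CPM of young replicate 3. In batch 2 cells with up to 5%, 6 of the 9 genes were higher in both aged samples than in young replicate 3, Jam2, Ramp2 and Trim47 being the exceptions. Above 5% all 9 were, as they were in both ranges of batch 1. Each of these comparisons has a single library on one side, and the share of all genes in the same order was not counted by range. Some counts were low. With up to 5%, Gda had 9 UMIs in young replicate 3 against 10 and 17 in aged replicates 2 and 3. Procr, the gating gene, was 1.33 to 1.98 times higher above 5%. The parts that RNA quality and depth have in these levels were not tested.

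CASIN was compared with aged samples, a comparison other than the old against young difference that chose the genes. The aged samples took part in the choice, and the CASIN samples may have, since the genes were picked as differing between the groups. None of the 9 genes passed the test, and neither did any of the 12707 genes (0%). At an unadjusted p below 0.05 there were 462 genes (3.64%), none of them a member. DESeq2's Wald test also called 0 genes. Without the filter on low counts some genes were called, Tm4sf1, Ehd3 and Trim47 among them (counts at the end). All 9 fitted changes were positive, from 0.16 for Sbspon to 0.57 for Trim47, with a median of 0.42 against -0.01 over all genes (adjusted p 0.955 to 0.974 in edgeR). The 95% interval was -0.16 to 1.23 for Tm4sf1 and -0.60 to 1.08 for Ramp2, the lowest of the 9 lower bounds.

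The batches went opposite ways. In batch 1, 8 of the 9 genes were lower in CASIN than in aged samples, by up to -0.64 for Ramp2, and Trim47 stood at 0.06. In batch 2 all 9 were higher in CASIN, by 0.87 for Sbspon to 1.57 for Ehd3 on the log2 scale. Each batch has a single library on one side, aged replicate 1 in batch 1 and CASIN replicate 3 in batch 2. Without CASIN replicate 3 only 4 of the 9 fitted changes were positive (median -0.01). Without aged replicate 1 all 9 were, with a median of 1.20. In that fit 51 genes were called in all, Jam2, Cavin2 and Ehd3 among them, against 0 of 12707 with all 9 libraries. What share of the genes tested in that fit this was is not given here. The aged samples took part in choosing the members, so these calls are a description.

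**Figure D5:**
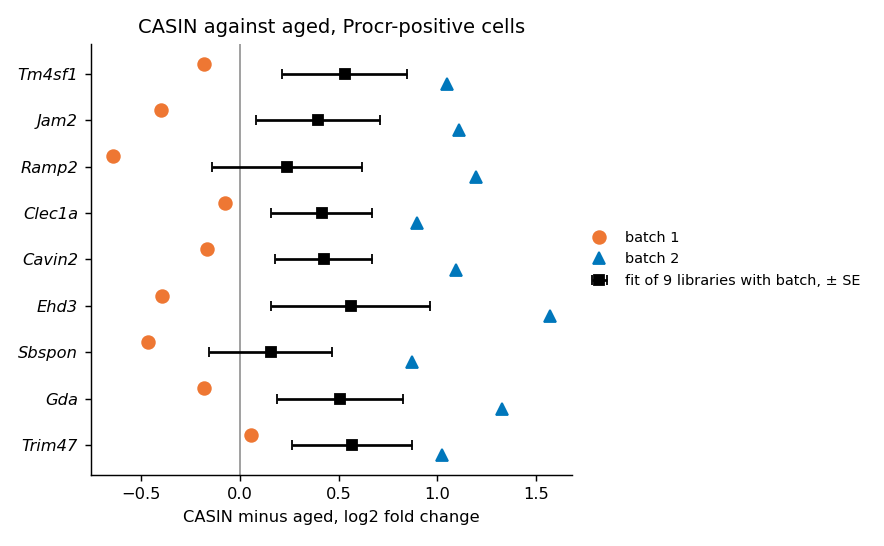
CASIN minus aged log2 fold change of the 9 genes in Procr-positive cells, with squares for the fit of all 9 libraries (bars are ± SE), circles for batch 1 and triangles for batch 2. The triangles lie between 0.87 and 1.57 and the circles between -0.64 and 0.06.

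The difference between the batches was tested with a term added after the data were seen. The aged arm of batch 1 and the CASIN arm of batch 2 hold 1 library each, which the fit assumes to vary like the groups with more than 1 library, so that the term compares these libraries as much as the batches. The change of Jam2 was 1.56 (SE 0.24) higher on the log2 scale in batch 2 than in batch 1 (adjusted p = 0.0488, edgeR), close to the threshold of 0.05, which 26 of the 12707 genes passed in all (0.205%, and 8.67% at an unadjusted p below 0.05). The other 8 members differed in the same direction by 1.03 to 2.08 with adjusted p from 0.139 to 0.352. Batch, sex-linked RNA and the mitochondrial share of the libraries cannot be told apart here.

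Other endothelial genes were read from a list of 40, of which 28 passed the filter on low counts. Between aged and young, 10 rose and 1 fell in Procr-positive cells by edgeR, against 6.89% and 2.53% of all genes tested. The list median was 0.60 on the log2 scale against 0.01 over all genes. The adhesion receptor Selp rose from 13.2 to 94.2 CPM (log2 fold change 2.83, SE 0.28, adjusted p = 0.000636) and Vwf from 4.55 to 38.5 CPM (3.20, SE 0.39, adjusted p = 0.00151), both also being products of the platelet lineage. The junction gene Cldn5 rose from 2.45 to 37.1 CPM (4.72, SE 0.36, adjusted p = 0.000151), with 4.57 in batch 1 and 0.66 in batch 2. The water channel gene Aqp1 rose by 2.24, the thrombomodulin gene Thbd by 2.52, Rasip1 by 1.96, Clec14a by 1.86, Cyyr1 by 1.40, and the receptor and adhesion genes Tie1 and Esam by 0.73 each (adjusted p 0.00406 to 0.0235, edgeR). Emcn, the sialomucin endomucin, fell by 0.55 (adjusted p = 0.0293, edgeR). Without aged replicate 1 the list had 6 higher and 0 lower, in thinned cells 4 higher and 2 lower, and without the batch term 0 and 0. In each of these settings fewer of all genes tested were called as well (counts at the end).

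Of the 8 defining endothelial genes, 4 were near 0. Cdh5, which encodes the junction protein VE-cadherin, had 9 UMIs in all Procr-positive cells together, Sox17 5, Stab2 18 and Plvap 62, and these 4 failed the filter on low counts. Of the other 4, Cldn5 rose (above), and Kdr (1.29, adjusted p = 0.0501), Sox18 (1.62, adjusted p = 0.0636) and Flt1 (0.50, adjusted p = 0.509) did not pass. Summed over the 8 genes, levels were 5.74 to 8.40 CPM in young, 7.94 to 123 in aged and 15.2 to 128 in CASIN samples. The 3 old libraries of batch 1 held 116 to 128 CPM. Most of the mean aged sum of 46.8 CPM over the 8 genes came from Cldn5 (above). Only 161 of the 7650 Procr-positive cells had UMIs of 2 or more of these genes, 7 young, 57 aged and 97 CASIN, and without them the member median between aged and young was 3.25.

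Partners and relatives of the 9 genes were read from another list. Of its 26 genes, 21 passed the filter, and 3 rose and 0 fell between aged and young by edgeR, against 6.89% of all genes tested that rose. The number that rose was 5 without young replicate 3 or aged replicate 3, 1 in a fit of these 2 groups alone and 0 without the batch term. With these 2 groups alone and without the batch term, fewer of all genes tested were called too (counts at the end). Cavin1, whose product builds the caveolar coat with Cavin2, rose by 1.07 (SE 0.17, adjusted p = 0.00464) and Cavin3 by 0.65 (SE 0.17, adjusted p = 0.0406). Clec1b, the platelet lectin receptor, rose by 3.67 (SE 0.53, adjusted p = 0.00319) from 0.386 to 2.84 CPM. Its young level was near 0, so that the size of this change rests on few young UMIs. Calcrl, the receptor that Ramp2 serves, had 41.9 CPM in young and 32.9 in aged samples (-0.26, adjusted p = 0.239). Jam3, the partner of Jam2, had 5.52 and 8.73 CPM (0.85, adjusted p = 0.105), and Xdh, the enzyme that follows Gda in purine breakdown, 2.09 and 5.46 CPM (1.60, adjusted p = 0.152). The list median was 0.07, and no gene of either list passed between CASIN and aged.

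Markers of other cells and of handling were read in the same cells. Over all genes tested 6.89% rose and 2.53% fell between aged and young, the shares to set beside each count here. Of 8 stem cell genes 5 rose and 0 fell between aged and young, among them Slamf1 by 2.69 and the gating gene Procr by 0.59 (edgeR). Of 12 megakaryocyte genes 8 passed the filter and 4 rose, and their summed level was 116 to 149 CPM in young, 147 to 282 in aged and 213 to 260 in CASIN samples. Of 12 genes of the response to tissue handling, such as Fosb and Jund, 8 rose and 0 fell, with sums of 1200 to 5499 CPM in young, 2387 to 10603 in aged and 1776 to 10756 in CASIN samples, and higher in batch 1 than in batch 2 throughout. Of the 8 genes in each of the lymphocyte, red cell, stromal and mature myeloid lists, 3, 3, 4 and 5 passed the filter. None of these was called between aged and young. The parts of platelet-lineage RNA and of handling in the member levels were not tested.

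Among the other genes whose level over the 9 samples followed the members most closely, after each batch mean was taken off, were Scd1, Tmem47, Gm5148, Rdh10, Selenom, Sec14l1 and Nbea, with Pearson's r from 0.995 to 0.998. Of these, Scd1, Tmem47 and Gm5148 had low counts, with 0.516 to 1.12, 0.295 to 1.12 and 0.499 to 4.33 CPM in young samples. Rdh10, a retinol dehydrogenase, had 4.14 CPM ± 0.556 in young, 12.3 ± 4.03 in aged and 15.3 ± 1.22 in CASIN samples, and Selenom, a selenoprotein of the endoplasmic reticulum, 25.5 ± 6.90, 70.8 ± 63.4 and 103 ± 38.5 (SD, n = 3). Such likeness was common, since 764 of 12698 genes (6.02%) had r of 0.9 or more. Vwf reached 0.995, Selp 0.983 and Procr 0.935. Each member had r of 0.941 (Trim47) to 0.998 (Jam2) with the mean of the other 8. The points share the group difference that chose the members, so r is a description.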

How the data were processed

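Single-cell 10x Genomics 3′ libraries of sorted LSK cells were analysed from the deposited UMI counts per gene and barcode, which the authors made with Cell Ranger 3.1.0 (mm10) and deposited without normalization. Cells were kept as in the study's methods: at most 10% mitochondrial UMIs, at most 6000 genes, 1000 to 40000 UMIs, and a distance of at most 0.4 from the line fitted to log gene number against log UMIs.

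UMIs were summed per sample over cells with at least 1 Procr UMI and tested in edgeR 4.0.16 (quasi-likelihood, TMM, filterByExpr, 9 samples, batch as a term, Benjamini-Hochberg adjustment, threshold 0.05) in R 4.3.3. CPM were computed from the same sums, and within-batch log2 values from mean CPM plus 1. Exact permutation tests (scipy, two-sided) were used for shares. The edgeR step was tested on simulated data with group differences but no batch shift, so its handling of batch was not tested. Counting limits (3 counts) cover counting error only. Scrublet marked 0.448% of cells, a share too low to rely on, so doublets were kept.

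The members and lists were chosen with earlier results of these data known. Named were the 9 members, Procr, up to 10 called genes each of the endothelial and partner lists by size of change, the defining endothelial genes and the 8 genes most like the members (1 of them is not reported here), and Calcrl, Jam3, Xdh, Emcn, Slamf1, Fosb and Jund were named after their values were seen. Gene positions are from GENCODE M21 and promoters from RefSeq, both on GRCm38. Alternatives were another normalization (DESeq2 1.42.0, also its Wald test), filter, batch term, replicate block, 2 groups alone, left-out samples, thinning, gates, doublets and mitochondrial limit. Added after seeing the data were leaving out shared barcodes, the test of CASIN minus aged between batches, and parts without thinning or per batch.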

Additional observations from a re-analysis of the deposited data

Results flagged for a closer look

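The CASIN minus aged change of Jam2 was 1.56 higher on the log2 scale in batch 2 than in batch 1, in an edgeR test of the difference added after the opposite directions were seen. It rests on 1 aged library in batch 1 and 1 CASIN library in batch 2, whose spread was assumed from the other groups, and its adjusted p of 0.0488 was close to the threshold. The share of Procr-positive cells was lower in CASIN than in aged samples in batch 1 (-9.35 percentage points) and higher in batch 2 (3.50 points), with every CASIN sample on one side of its batch's aged samples, and this difference was not tested.

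Barcodes above the limit of 10% mitochondrial UMIs, which entered no comparison, also held the 9 genes. These barcodes were taken whether or not they had a Procr UMI. Their CPM were scaled to the UMIs without the mitochondrial ones. The values can therefore be compared with each other but not with the CPM of Procr-positive cells given above. In the 226 such barcodes of aged replicate 1 the summed level was 1149 CPM, against 99.9 and 141 CPM in the young samples of batch 1. In aged replicates 2 and 3 it was 529 and 211 CPM (mean 370.2), against 64.5 CPM in young replicate 3.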

How the results depend on the processing

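The members' aged minus young changes kept their sign in all 207 values from the alternatives, 189 of them within 1 SE. This direction chose the genes, and the alternatives reuse the same libraries, so that these counts are a description. Pairing by replicate number was largely tied to batch, since replicate 1 lay wholly in batch 1 and replicate 3 in batch 2. Only replicate 2 crossed the batches, and whether same-numbered samples were paired was not tested. The r of deviations from the group means still held the batch difference. It was -0.707 and -0.731 in the pairs of replicate 2 across batches, against 0.817 between CASIN and young within batch 1. Genes called between aged and young (1196) became 636 with the replicate block, 2196 without the filter, 4 without the batch term, 649 with only these 2 groups, 413 in thinned cells, 610 with a mitochondrial limit of 5%, 560 over all LSK cells and 303 to 1394 with 1 sample left out (303 without aged replicate 1, 435 and 488 without young replicates 1 and 2). Between CASIN and aged (0) they became 155 without the filter, 1 at 5%, and 0 to 51 with 1 sample left out (51 without aged replicate 1), and between CASIN and young (2092) 10 without the batch term, 763 in thinned cells, 951 in the stem gate of Hlf, Mecom, Mllt3 and Fgd5, 657 at 5%, 582 over all LSK cells and 670 to 2570 with 1 sample left out (670 and 908 without young replicates 1 and 2, 1185 and 674 without CASIN replicates 2 and 3). The block left the last count at 2043. Tm4sf1, Ehd3 and Trim47 were among the 155 genes called between CASIN and aged without the filter. What share of the genes tested these 155 were is not given here.

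Reversed between CASIN and aged were Sbspon (-0.077) and Ramp2 (-0.14) at 5%, and with 1 sample left out (CASIN replicate 3, or for Sbspon and Ramp2 also aged replicate 3) Sbspon (-0.42 to 0.88), Cavin2 (-0.078 to 1.10), Ramp2 (-0.45 to 1.20), Ehd3 (-0.10 to 1.69) and Gda (-0.0083 to 1.41), as well as the share of stem cells, which was 5.91 points higher in CASIN in the stem gate. Signs also turned for Ramp2 (-0.11) and Gda (-0.044) in Procr-negative cells, for Sbspon (-0.13) in Vwf-positive and for Ramp2 (-0.14) in Vwf-negative Procr-positive cells.

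The part from the share was 4.92% when thinned to 2000 UMIs, 2.55% in the stem gate, 4.67% in batch 1 and 5.96 to 12.3% with 1 sample left out (12.3% without aged replicate 1). The part from the level in Procr-positive cells was 22.3% at 2000 UMIs, 62.9% unthinned and 49.3% in batch 2, and that in Procr-negative cells 28.4% unthinned and 40.1% in batch 2. At 5% the summed levels were 57.7 CPM in young and 463 in CASIN Procr-positive cells, 198 in CASIN cells with Pf4 or Itga2b and 331 in the CASIN cells left. Thinned to 2000 UMIs, 16.4% of young and 62.3% of CASIN Procr-positive cells had a member. The unthinned and within-batch parts were chosen after seeing the data. The causes were not tested.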
